A study of Mus musculus with 12 samples.

Results

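The receptor chains and transcription factors of type 2 cytokine signalling were examined for N6-methyladenosine (m6A), a methyl mark on adenosines inside RNA, in allergic and control mouse lung. The 10 genes were Il4ra, Il13ra1, Il13ra2, Il5ra, Csf2rb, Csf2rb2, Il2rg, Stat6, Stat5a and Stat5b, and peaks had been called on 14988 gene identifiers in all. A peak was counted for a gene when it had been called on that gene or when the annotation assigned it to that gene by name. By this rule 15 of the 27292 peaks of the OVA list and 13 of the 26102 peaks of the PBS list belonged to the 10 genes.

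Lung tissue came from 3 OVA and 3 PBS mice, all female BALB/c of 6 to 8 weeks. OVA mice were sensitized by injection of ovalbumin with an aluminum adjuvant on days 0 and 7 and inhaled 3% ovalbumin for 30 min daily from day 14 to day 20, a model of acute allergic asthma, while PBS mice received PBS by both routes. Tissue was taken on day 21. From every mouse, RNA fragments bound by an antibody to m6A made up the immunoprecipitated (IP) library and unselected fragments the input library, 12 libraries in all, and 1 peak list was deposited for each group. The lists hold no values of single mice and no read numbers, so the depth behind a peak is unknown and no difference between the lists has a replicate check.

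Interleukin 4 and interleukin 13 act through Il4ra, which pairs with Il2rg, the common gamma chain, or with Il13ra1, and the paired receptor activates Stat6. Interleukin 5 binds Il5ra, which signals through Csf2rb, the beta chain that it shares with the receptors for interleukin 3 and GM-CSF, and these receptors activate Stat5a and Stat5b. In the airway these cytokines are known for eosinophil recruitment, mucus production and IgE switching. Il13ra2 binds interleukin 13 without activating STAT6 in the usual way, and Csf2rb2 is a second beta chain of the mouse that serves interleukin 3.

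Each list had a peak for 8 of the 10 genes, and these were the same 8 genes. Among the 20946 genes that RefSeq lists as protein-coding, 57.3% had a peak in the OVA list versus 55.8% in the PBS list by the same rule. Il13ra2 and Stat5b had no peak in either list. None of the 10 genes had a peak in 1 list alone, against 4.35% of protein-coding genes with a peak in the OVA list and none in the PBS list and 2.92% the other way. This count depends on how peaks are attributed. By assigned name alone Csf2rb2 had a peak in the OVA list only, and with protein-coding transcripts alone Csf2rb2 had one in the OVA list only and Stat6 in the PBS list only. A peak needs both RNA and enrichment, so a gene without one is not thereby unmethylated or silent. In whole lung RNA, fewer cells of a type and less RNA per cell cannot be told apart.

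Of the 15 OVA peaks, 10 overlapped a PBS peak by at least 1 bp of exonic sequence, or 66.7% (95% Wilson interval 41.7% to 84.8%), beside 80.6% of all OVA peaks. Overlap with an OVA peak was found for 11 of the 13 PBS peaks, or 84.6% (57.8% to 95.7%), beside 85.5% of the PBS list. Both intervals include the share of the whole list. They cover counting error only and treat peaks as independent, although several peaks lie on the same gene, so they do not test the members against the list. The 5 OVA peaks without a counterpart lay on Csf2rb2, Il5ra and Il2rg, and the 2 such PBS peaks lay on Stat6 and Stat5a.

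The fold enrichment of a peak, the IP signal relative to input from the authors' peak caller, was ranked within its own list. The median over the OVA peaks of the 10 genes was 4.62, beside 5.59 over all OVA peaks, and the PBS median was 6.95, beside 5.44. Values ran from 2.08 to 26.0 among OVA peaks and from 2.56 to 52.3 among PBS peaks. The genes therefore spanned weak and strong peaks in both lists. All 15 OVA peaks and all 13 PBS peaks had a false discovery rate (FDR) under 0.05, as did 98.1% and 97.8% of the lists.

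**Figure D1:**
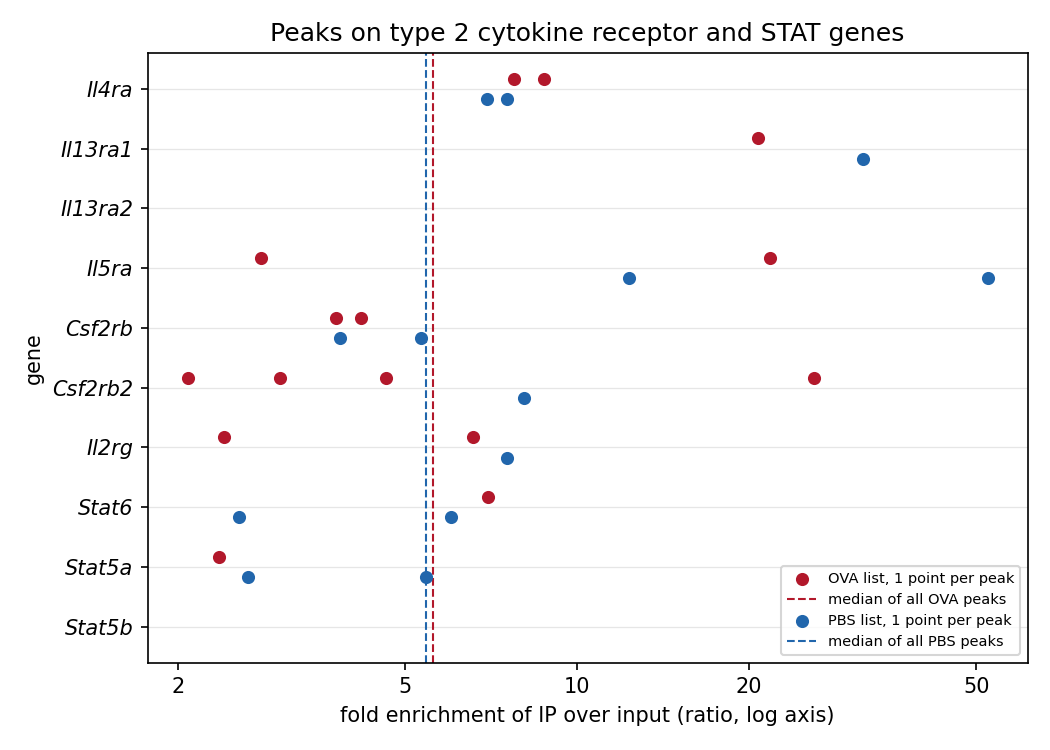
Each point is 1 peak of the named gene, placed by its fold enrichment of IP over input on a log axis, with OVA peaks in red and PBS peaks in blue; dashed lines mark the medians of all peaks, 5.59 in the OVA list versus 5.44 in the PBS list. Il5ra, Il13ra1 and Csf2rb2 hold the points above 20, and Il13ra2 and Stat5b have none.

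By the region that the annotation gives, the 15 OVA peaks comprised 10 of the 3' UTR, 3 of the 5' UTR and 2 of other exons. Among the 13 PBS peaks, 8 were of the 3' UTR, 2 of the 5' UTR and 3 of other exons. The 3' UTR share was 66.7% (95% Wilson interval 41.7% to 84.8%) in the OVA list versus 61.5% (35.5% to 82.3%) in the PBS list, and 52.7% of all peaks in each list lay there. Position along the gene gave a similar picture, since 11 OVA and 10 PBS peaks were nearer to the 3' end of the RefSeq gene than to its 5' end.

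**Figure D2:**
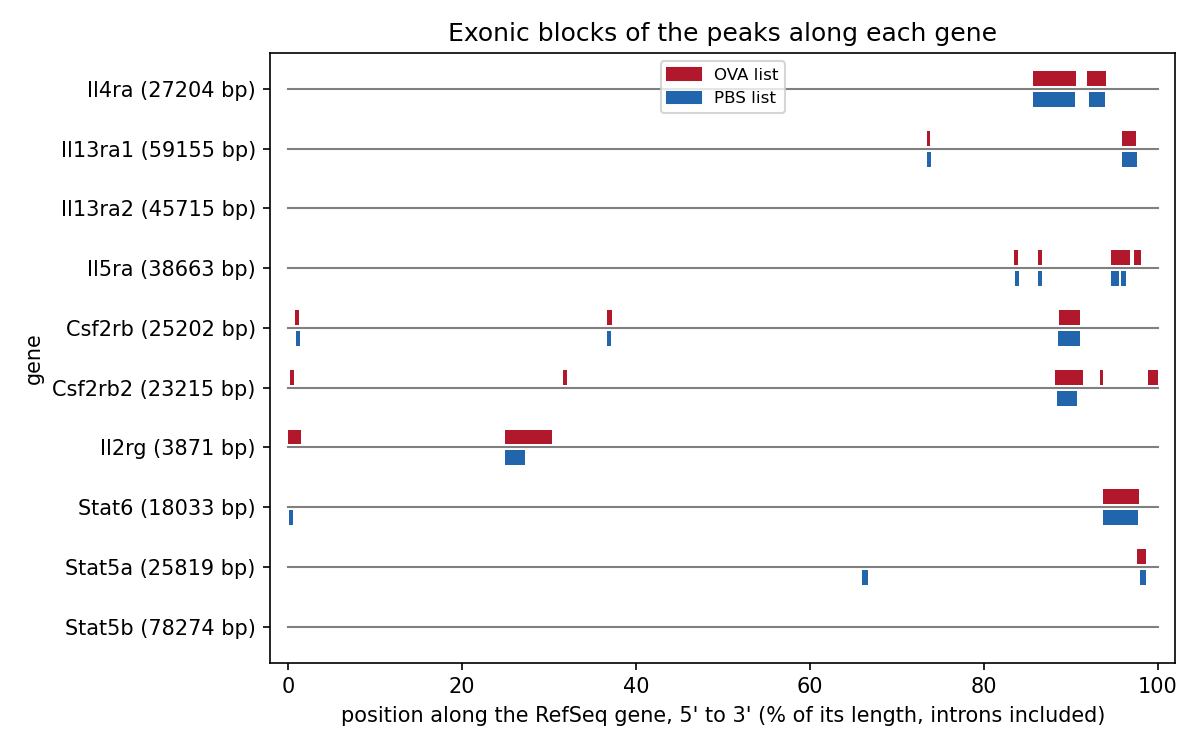
Exonic blocks of each peak are drawn along the RefSeq gene from its 5' end to its 3' end, as a percentage of gene length with introns included, with OVA blocks in red above the line and PBS blocks in blue below it; the narrowest blocks are widened to stay visible. Most blocks gather toward the 3' end, and Il2rg differs in having its blocks in the first part of the gene.

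Il4ra, the chain shared by the receptors for interleukin 4 and interleukin 13, carried a pair of neighbouring 3' UTR peaks in each list. The longer one started at 125575563 on chromosome 7 (GRCm38) in both lists, with its end at 125576906 (OVA) or 125576877 (PBS). Its fold enrichment as an OVA peak was 7.75, above 61.4% of that list's peaks, and as a PBS peak 7.53, above 61.6%. The rank was thus nearly the same in both lists. Its log10 p value was -2840 in the OVA list, lower than for 99.5% of peaks, and -1490 in the PBS list, lower than for 98.4%. The second peak, at 125577265 to 125577862 in the OVA list, was enriched 8.73-fold and its PBS counterpart, at 125577324 to 125577832, had 6.95. Both Il4ra peaks ranked only in the upper middle by fold enrichment while standing near the head of the lists by p value, which also depends on read number. The annotation assigned all of them to an Il4ra transcript of the nonsense-mediated decay class.

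Il13ra1, which completes the receptor for interleukin 13, carried 1 peak of 2 exonic blocks in each list. In the OVA list it ran from 36155559 to 36169793 on chromosome X, and its blocks of 69 and 980 bp covered 1049 bp. The PBS peak ran from 36155589 to 36169852 with blocks of 39 and 1039 bp. The OVA peak had a fold enrichment of 20.7, above 92.6% of its list, and the PBS peak had 31.6, above 98.4%. The Il13ra1 peak was therefore among the more enriched peaks of either list. Both peaks lay inside Il13ra1 and had been called on it, but the annotation assigned them to Zcchc12, whose transcript start lay at distances of -26111 and -26052 bp. By assigned name alone Il13ra1 would have had no peak.

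Il5ra, the chain that binds interleukin 5, had the highest fold enrichment of the 10 genes in the PBS list. That peak, of 3 blocks on chromosome 6 from 106712114 to 106716707, was enriched 52.3-fold, above 99.6% of PBS peaks, with a log10 p value of -16.9, lower than for 46% of them. The OVA peak over the same exons, from 106711638 to 106716767, had a fold enrichment of 21.8, above 93.5% of OVA peaks, and a log10 p value of -194, lower than for 81.5%. The OVA peak was thus lower in rank by fold enrichment and higher in rank by p value. Its blocks covered 984 bp and those of the PBS peak 448 bp. The same OVA peak also overlapped a separate PBS peak at 106711787 to 106712025, enriched 12.3-fold with a log10 p value of -3.38. A further OVA peak at 106711131 to 106711429, enriched 2.79-fold, had no PBS counterpart. In all, Il5ra peaks covered 1283 bp in the OVA list and 687 bp in the PBS list.

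Eosinophils are a main site of Il5ra expression, and their markers are given beside these values. Of the 4 markers, 1 had a peak in both lists and 3 (Siglecf, Epx and Prg2) had none. Ccr3, the eotaxin receptor, had a peak of 1875 bp in the OVA list with a fold enrichment of 13.0 and a log10 p value of -254. Its PBS peak covered 61 bp, with a fold enrichment of 6.17 and a log10 p value of -2.70. Ccr3, the only eosinophil marker with a peak, and Il5ra thus had longer peaks with lower p values in the OVA list. This was not particular to them. All overlapping peaks of the members had the lower log10 p value in the OVA list, such as Stat6 with -674 there and -501 in the PBS list. Apart from Il13ra1 and the last-exon peak of Csf2rb, they also covered more bp in the OVA list. A p value also depends on read number, which is unknown here. By fold enrichment the Ccr3 peak ranked above 79.7% of OVA peaks and 54.4% of PBS peaks, and the longest Il5ra peak above 93.5% and 99.6%. The part of eosinophil number in the Il5ra values was not tested.

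Csf2rb and Csf2rb2, the beta chains, lie 20078 bp apart on chromosome 15 on opposite strands and are close paralogs, so reads could be shared between them and the values of both are uncertain. Csf2rb had 2 peaks in each list. The first joined blocks of 87 and 123 bp in the 5' UTR region, from 78326012 to 78335180, with an OVA fold enrichment of 4.19, and its PBS counterpart, from 78326042 to 78335150, had 3.85. The second, in the last exon, ran from 78348132 to 78348731 with an OVA fold enrichment of 3.78, and from 78348102 to 78348731 with 5.32 in the PBS list. Csf2rb peaks were thus found at the same sites in both lists.

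Csf2rb2 had 4 peaks in the OVA list versus 1 in the PBS list. The peak found in both ran from 78284517 to 78285266 in the OVA list, with a fold enrichment of 26.0, above 96% of OVA peaks. In the PBS list it ran from 78284667 to 78285206, with a fold enrichment of 8.06, above 63.9% of PBS peaks. Within its own list the OVA peak ranked higher. The other OVA peaks were a 5' UTR peak from 78298282 to 78305661 with a fold enrichment of 3.02, and 3' UTR peaks at 78283977 to 78284067 with 2.08 and at 78282507 to 78282777 with 4.62. The last of these reached the final base of the RefSeq gene. The 3 peaks without a PBS counterpart thus had fold enrichments below the median of all OVA peaks.

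The 3' peaks of both beta chains had been called on Csf2rb and Csf2rb2 but assigned to the microRNA genes Mir7676-2 and Mir7676-1. The hairpin of Mir7676-1 lies at 78284788 to 78284849 on the minus strand, 2281 bp before the 3' end of Csf2rb2, and that of Mir7676-2 at 78348599 to 78348660 on the plus strand, 2341 bp before the 3' end of Csf2rb. In each list 1 peak of each gene enclosed the hairpin. All 62 bases of the hairpins are identical, and both give the same mature microRNAs. RefSeq (GRCm38.p6) lists these sequences, shown because they stand inside the peaks that the annotation named after them, with the seed, bases 2 to 8, in capitals.
mmu-miR-7676-5p: aGGGCAGUaugauggccucugau
mmu-miR-7676-3p: uCCGGUGCucacucugcccaca

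**Figure D3:**
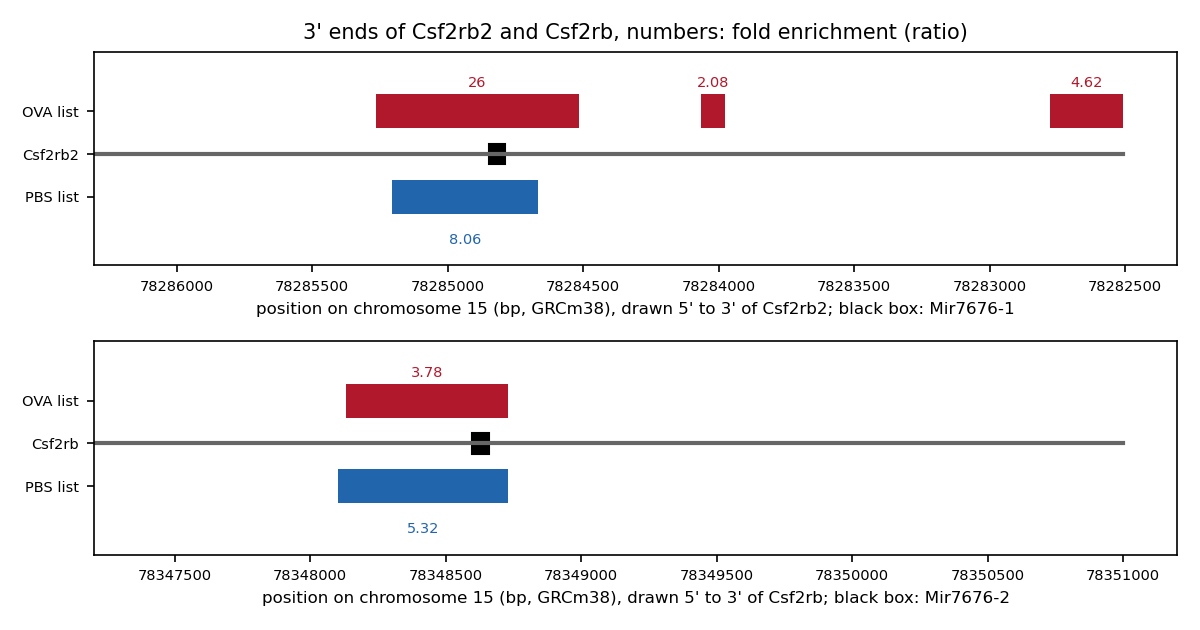
The 3' ends of Csf2rb2 (top) and Csf2rb (bottom) are drawn 5' to 3' along chromosome 15 in bp, with OVA peaks in red, PBS peaks in blue, their fold enrichments as numbers and the identical microRNA hairpins as black boxes. A peak encloses the hairpin in both genes and both lists, and Csf2rb2 has further OVA peaks with 2.08 and 4.62 downstream.

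Il2rg, the common gamma chain, had its peaks toward the 5' end of the gene, unlike most of the other members. An exonic peak ran from 101267081 to 101267290 on chromosome X in the OVA list, with a fold enrichment of 6.58, and from 101267200 to 101267290 in the PBS list, with 7.53. A second OVA peak of 61 bp, at 101268195 to 101268255 in the 5' UTR, was enriched 2.41-fold, above 17.3% of OVA peaks, and had no PBS counterpart. Il2rg thus had a weak start peak in the OVA list beside an exonic peak in both.

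Stat6, the factor activated by interleukin 4 and interleukin 13, had a 3' UTR peak starting at 127659849 on chromosome 10 in both lists. It ended at 127660598 with an OVA fold enrichment of 6.99, above 57.8% of peaks, and at 127660568 with 6 in the PBS list, above 53.5%. The 3' UTR peak was alike in place and rank. The PBS list also had a 5' UTR peak of 61 bp at 127642986 to 127643046, enriched 2.56-fold with a log10 p value of -12.2, which had no OVA counterpart.

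The start peaks of Stat6 and Il2rg cover the first 50 bases after the start that RefSeq's promoter table gives, where sequence was at hand. For Stat6 that start lies 31 bp inside the RefSeq gene. These were searched on the transcript strand for 12 words of 5 letters, each made of A or G, again A or G, then AC, and last A, C or T, the sequence context in which m6A is usually found. At least 1 of them stood in 44.6% of the first 50 bases of all 32851 starts in the table. Stat6 held 1, AAACA at 127642996 to 127643000, and Il2rg held none in this window. The first 30 bases of the Stat6 peak, chr10:127642986-127643015 on the plus strand, are shown with this word in capitals, as a description and not as a methylated site.
Stat6: gagaagccggAAACAgcaggccggggcagc

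Stat5a and Stat5b, activated by interleukin 5 and related cytokines, lie 346 bp apart on chromosome 11 and differed in having peaks. Stat5a had a 3' UTR peak at 100884540 to 100884809 in the OVA list, enriched 2.36-fold, and at 100884630 to 100884809 in the PBS list, with 2.65. These ranked above 16.5% and 21.7% of the peaks of their lists. The PBS list had a second Stat5a peak at 100876377 to 100876557, enriched 5.43-fold with a log10 p value of -3.25, lower than for only 10.6% of PBS peaks. Stat5a peaks were thus weak by fold enrichment or by p value. Stat5b, a close paralog of Stat5a, had none, and reads that fit both genes could be placed on either.

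The share of these peaks assigned to protein-coding transcripts was near that of the lists. Of the OVA peaks, 7 of 15 were assigned to protein-coding transcripts, 4 to microRNAs, 2 to nonsense-mediated decay transcripts, 1 to a processed transcript and 1 to a retained intron. Of the PBS peaks, 6 of 13 were assigned to protein-coding transcripts. These shares were 46.7% for OVA and 46.2% for PBS, beside 41.8% of all OVA peaks and 42.5% of all PBS peaks. In each list only 4 genes had a peak assigned to their own protein-coding transcript. The Il4ra peaks, the 3' UTR peaks of Stat6 and the Stat5a peaks all belonged to other transcript classes. For 5 OVA and 3 PBS peaks the assigned gene differed from the called gene, as it did for 22.5% and 22.8% of the peaks in the lists.

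The cytokines that bind these receptors were looked up by the same rule. Of 10 cytokine genes, 2 had a peak in both lists, 2 in the PBS list alone and 6 in neither, among them Il4 and Il5. Among all protein-coding genes, 57.3% had a peak in the OVA list, 55.8% in the PBS list and 2.92% in the PBS list alone. These shares, and 4.35% with a peak in the OVA list alone, also stand beside the gene and marker lists below. Csf2, which encodes GM-CSF, a ligand that signals through Csf2rb, had a PBS peak with a fold enrichment of 3.70, and Il15, a ligand that uses Il2rg, had one with 14.8. The Csf2 peak was called on Csf2 but assigned to the antisense gene Gm12223. Il7, another ligand of Il2rg receptors, had fold enrichments of 9.88 in the OVA list versus 8.88 in the PBS list. Of these genes, Il13 counted only through peaks called on its neighbour Rad50.

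Of 13 other receptor chains, 10 had a peak in both lists and 2 in neither. A peak in the OVA list alone was found for 1, beside 4.35% of all protein-coding genes. Il9r, which pairs with Il2rg, had fold enrichments of 42.6 in the OVA list versus 28.6 in the PBS list, and Il2ra, which also joins Il2rg, had 36.4 and 53.8 at its highest. Both of these Il2ra peaks were called on Il2ra but assigned to another gene, Gm37881. Il7r, which also pairs with Il2rg, had a 3' UTR peak called on it with 15.2 in the OVA list versus 16.8 in the PBS list. Its named maximum of 54.9 in the OVA list came from a peak called on Spef2 and only assigned to Il7r, whose PBS counterpart had 15.3. Csf2ra, the GM-CSF chain that pairs with Csf2rb, had OVA peaks with 2.16 and 3.73 and no PBS peak.

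Among 8 kinases and other STATs that act with Stat6 and Stat5a, 6 had a peak in both lists and 1 in neither. A peak in the PBS list alone was found for 1, beside 2.92% of all protein-coding genes. Stat3 was the gene with no peak. The PBS gene, Tyk2, counted only through a peak called on its neighbour Cdc37, with a log10 FDR of -1.17, which is not under 0.05. Of the genes named for the highest values of this group, Stat2 reached an OVA fold enrichment of 37.7 versus 25.2 in the PBS list. Stat4 had 22.8 and 9.62, and Jak2, a kinase bound to Csf2rb, reached 11.8 and 13.7. Of 12 adaptors and phosphatases that act below the receptors, 10 had a peak in both lists and 2 in neither. Shc1 reached 26.7 in the OVA list versus 8.69 in the PBS list, Irs2, which Il4ra engages, 23.9 and 20.4, and Irs1 23.6 and 24.7 at its 3' UTR peak and 22.1 and 30.6 at its 5' UTR peak. Syk had 14.3 and 12 at its main 3' UTR peak and 9.12 and 24.4 at its 5' UTR peak.

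Of 23 known targets of STAT5 and STAT6, 16 had a peak in both lists and 3 in neither. A peak in the OVA list alone was found for 3, beside 4.35% of all protein-coding genes, and in the PBS list alone for 1, beside 2.92%. The targets with peaks in the OVA list alone included Ccl24, with fold enrichments of 5.17 and 1.86, and Clca1, with 3.55, which are known targets of Stat6. Chil3 had a peak with 1.75 in the PBS list alone. The 2 genes with the highest fold enrichment in the OVA list were Foxa3, with 27.7 in the OVA list versus 15.8 in the PBS list, and Spdef, with 22.5 and 8.55. In the PBS list they were Cish, the feedback inhibitor that Stat5a and Stat5b induce, with 29.2 there and 21.7 in the OVA list, and Muc5ac, with 20.7 and 10. This PBS peak of Muc5ac covered 480 bp with a log10 p value of -6.13, and the OVA peak 3175 bp with -461. All 5 lists together held 66 genes, of which 44 had a peak in both lists, 4 in the OVA list alone and 4 in the PBS list alone. By called gene these were 42, 4 and 3. The shares of all protein-coding genes were 4.35% for a peak in the OVA list alone and 2.92% for one in the PBS list alone.

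Markers of the cells that carry these receptors were looked up in the same way. All 3 endothelial markers, both T cell markers and the leukocyte marker Ptprc had peaks in both lists. Of 5 epithelial markers, 3 had peaks in both lists and Sftpc and Epcam had none. The B cell marker Ms4a1 had peaks in both lists, and Csf1r was the macrophage marker with peaks, while Marco and Adgre1 had none. Of 3 mast cell markers, Mcpt4, with a fold enrichment of 8.73, and Kit, with 1.45, had peaks in the OVA list alone and Cpa3 had none. Among markers of other tissues, Tg had peaks in the OVA list alone, Myh6 in the PBS list alone and Alb in neither. Their part in the peaks of the receptor genes was not tested.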

How the data were processed

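Ribosome-depleted RNA of lung from 3 OVA and 3 PBS mice gave 6 IP and 6 input libraries. The authors cleaned reads with FASTP, aligned them with HISAT2 to the Ensembl mouse genome, used exomePeak to call peaks and ChIPseeker to annotate them. The versions of these tools are not given in the sources used here. The deposited fold enrichment is the authors' ratio of IP over input. Each peak also has deposited scores, which are log10 values of the p value and FDR. How replicates were combined is not given in the sources used here. Deposited starts were read as counted from 0, since 649 OVA peaks began 1 bp before the first base of their transcript and 20 began on it; positions are printed counted from 1. The authors' values were ranked within a list. Ratios between the lists were also computed and then set aside, because values were to be ranked within a list only. Exonic blocks were compared with a minimum overlap of 1 bp. Shares of the members' peaks have 95% Wilson intervals, which treat peaks on the same gene as independent. Members and lists were chosen with earlier results of these data known. Named genes were mainly the members, list genes with a peak at an FDR under 0.05 in 1 list and none in the other, and the 2 genes of each list with the highest fold enrichment in each peak list. Motifs were searched only in the first 50 bases of starts in the RefSeq promoter table; whole peaks were not searched for motifs, and protein identity was not analysed here. Some listed genes are counted but not reported here by name. The overlap code was tested on simulated data. Tables were handled with pandas 2.3.3 in Python 3.11.15, intervals came from scipy 1.17.1 with numpy 2.4.6, and plots from matplotlib 3.10.9.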

Additional observations from a re-analysis of the deposited data

How the results depend on the processing

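Under the alternatives tried, 32 values stayed within the limits set, which were 1.5 times for a count and the 95% interval of a median, and 6 did not. These limits are wide. By assigned name alone there were 10 OVA and 10 PBS peaks, on 7 and 6 genes, and requiring shared sequence to fill 50% of each peak left 8 OVA and 8 PBS peaks with a counterpart. The PBS median was 9.92 with protein-coding transcripts alone, inside its interval of 3.85 to 12.3. Counting only peaks assigned to protein-coding transcripts left 7 OVA and 6 PBS peaks, on 5 genes for OVA and 5 for PBS that differed by Csf2rb2 and Stat6, since this removes the other transcript classes. Requiring identical start and end left 0 OVA and 0 PBS peaks of these genes with a counterpart, since no peak had both edges in common. No paired analysis was possible because the lists hold no values of single mice. Leaving out a mouse was not possible for the same reason. Without read numbers, no error can be given for a fold enrichment.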

Other observations

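The called gene and the assigned gene also differed around the members' partners. Both peaks assigned to Il13, the ligand of Il13ra1, were called on the neighbouring gene Rad50 in each list, with fold enrichments of 2.27 and 7.04 in the OVA list and 1.70 and 8.32 in the PBS list. Peaks called on Jak2 were assigned to Cd274. By called gene alone, 42 of the 66 listed genes had a peak in both lists, compared with 44 when either name counted, and 3 compared with 4 had a peak in the PBS list alone.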
